A study of Homo sapiens with 6 samples.

Results

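Nuclear genes for the subunits of the oxidative phosphorylation machinery were described in IMR-90 cells, a line of human fetal lung fibroblasts, in which ZNF469 was knocked down. The genes were chosen by symbol alone (NDUFA, NDUFB, NDUFC, NDUFS and NDUFV genes, SDHA to SDHD, UQCR genes, CYC1, the nuclear COX4 to COX8 series and ATP5 genes), which gave 90 of the 23754 features in the table. Of these, 36 belong to complex I, 4 to complex II, 10 to complex III, 19 to complex IV, with NDUFA4 and NDUFA4L2 counted there, and 18 to complex V, while ATP5MGL and the readthrough transcripts ATP5MF-PTCD1 and NDUFC2-KCTD14 were placed in no complex. The symbol rule does not reach NDUFAB1 or CYCS, which were kept in a separate list of electron carriers. ATP5MD and ATP5MPL, as the table names them, are the current ATP5MK and ATP5MJ.

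The study compared cells whose sh-2 hairpin against ZNF469 was induced with 2 µg/mL doxycycline for 4 days (DOX+, labelled Sh-ZNF469, 3 libraries) with the same line left without doxycycline (DOX-, labelled Control, 3 libraries). All cells of both groups carried the lentiviral hairpin cassette, although the labels call the control wild-type, and 0 libraries received doxycycline without a hairpin against ZNF469, so that the hairpin and the drug cannot be told apart. Poly(A)-selected RNA was sequenced in pairs of 150 bp, and the reads counted on genes summed to between 34057675 and 36120260 per library. The submitted description calls the replicates technical, and the p-values below therefore measure only the spread between these libraries, which may be technical.

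ZNF469, a zinc finger gene, was counted at 118, 112 and 126 CPM (reads counted on the gene, scaled to the size of the library) in DOX- libraries and at 80.4, 80.4 and 79.6 CPM in DOX+ libraries, a log2 fold change of −0.57 (SE 0.0477, edgeR adjusted p = 3.3e-05). All 8 fibroblast markers passed the filter on low counts. Among markers of other cell types, NKX2-1, SFTPB and SFTPC (lung epithelium), PECAM1 and CDH5 (endothelium), CD3E and LYZ (immune cells) and CKM and MYH7 (muscle) had 0 counts in all 6 libraries. Others on the same lists were counted. The filter was passed by 3 of 7 epithelial, 2 of 5 endothelial, 1 of 5 immune and 3 of 6 muscle markers. In DOX- replicate 1, scaled to library size only, KRT18 stood at 92.7, KRT8 at 15.7, TEK at 19.7, CD68 at 66.4 and CNN1 at 203 CPM. The summed level of the fibroblast markers, dominated by COL1A1, ran from 26643 to 27391 CPM in DOX- and from 20698 to 21180 CPM in DOX+ libraries, and its part in the results below was not tested. COL1A1 alone was at 15532, 14999 and 15644 CPM in DOX- and at 9845, 9408 and 9770 CPM in DOX+ libraries. VIM, the next highest, was at 7947, 7845 and 8043 CPM against 7932, 7915 and 7999 CPM. At an edgeR adjusted p under 0.05, 4 of the 8 were lower and 0 higher, beside 0.715% and 0.400% of all features tested. The paper reports lower COL1A1, COL3A1 and LUM after the knockdown. DOX+ replicate 2 stood apart on the first principal component, which held 23.9% of the variance (32.8 against −12.6 to 0.52 for the other 5 libraries), and values of named members and complexes that it moved by over 1.5 times are also given without it.

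Oxidative phosphorylation couples the flow of electrons to the making of ATP in the inner mitochondrial membrane. Complex I takes electrons from NADH and complex II from succinate, complex III passes them from ubiquinol to cytochrome c, complex IV hands them to oxygen, and complex V (ATP synthase) uses the proton gradient built by complexes I, III and IV. Most subunits are encoded in the nucleus and imported, whereas a small set, including the catalytic core of complex IV and the cytochrome b of complex III, is encoded by mitochondrial DNA, and complex II is wholly nuclear. Nuclear subunit genes are classically tied to the transcription factors NRF1, GABP (an ETS factor) and YY1, and fibroblasts in culture draw on both respiration and glycolysis.

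The promoters of these genes are shown for 1 member of each complex, namely the tested member with the smallest p among those with a RefSeq promoter, since the question of a shared shift across the complexes meets the sequence there. Each run is the 250 bases before the RefSeq transcription start on GRCh38.p14, read 5′ to 3′ on the strand of the gene, and capitals mark matches to GCGCNTGCG (the NRF1 core) or CCGGAAG (the ETS core) on either strand. NDUFS6 lies at chr5:1801157-1801406 (plus strand), SDHD at chr11:112086623-112086872 (plus strand), UQCRFS1 at chr19:29213152-29213401 (minus strand), COX6A1 at chr12:120437863-120438112 (plus strand) and ATP5ME at chr4:674277-674526 (minus strand).
NDUFS6: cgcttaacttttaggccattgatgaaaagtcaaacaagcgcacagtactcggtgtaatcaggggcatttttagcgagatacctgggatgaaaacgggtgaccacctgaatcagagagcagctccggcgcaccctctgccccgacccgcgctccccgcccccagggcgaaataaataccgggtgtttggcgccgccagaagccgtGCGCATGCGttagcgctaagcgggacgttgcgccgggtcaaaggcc
SDHD: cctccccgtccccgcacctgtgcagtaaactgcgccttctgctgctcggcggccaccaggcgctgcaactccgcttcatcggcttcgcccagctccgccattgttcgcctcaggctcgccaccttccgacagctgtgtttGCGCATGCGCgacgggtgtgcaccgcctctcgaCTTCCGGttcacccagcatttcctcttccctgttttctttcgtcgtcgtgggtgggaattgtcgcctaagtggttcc
UQCRFS1: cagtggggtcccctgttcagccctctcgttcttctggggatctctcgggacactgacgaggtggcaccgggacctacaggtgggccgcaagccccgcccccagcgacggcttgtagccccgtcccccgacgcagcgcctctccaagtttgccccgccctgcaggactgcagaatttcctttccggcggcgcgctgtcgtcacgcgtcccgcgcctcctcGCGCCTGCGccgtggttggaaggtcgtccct
COX6A1: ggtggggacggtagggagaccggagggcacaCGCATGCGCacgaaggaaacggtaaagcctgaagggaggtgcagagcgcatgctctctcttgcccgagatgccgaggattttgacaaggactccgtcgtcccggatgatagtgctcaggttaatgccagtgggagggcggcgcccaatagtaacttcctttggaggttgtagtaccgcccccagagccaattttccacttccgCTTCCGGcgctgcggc
ATP5ME: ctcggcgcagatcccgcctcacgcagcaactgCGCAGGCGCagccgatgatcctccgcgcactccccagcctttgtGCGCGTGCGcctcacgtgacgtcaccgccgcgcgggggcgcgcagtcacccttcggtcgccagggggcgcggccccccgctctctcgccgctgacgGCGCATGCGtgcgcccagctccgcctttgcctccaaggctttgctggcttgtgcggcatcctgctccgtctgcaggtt

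NDUFS6 held an NRF1 core 46 to 38 bases before its start and UQCRFS1 held one at 31 to 23 bases. In SDHD the match reads on both strands with 1 base of offset, 110 to 101 bases before the start, and an ETS core follows at 77 to 71 bases. COX6A1 had an NRF1 core far out, 219 to 211 bases before the start, and an ETS core close in, at 16 to 10 bases, whereas ATP5ME had 3 NRF1 cores and 0 ETS cores. Of the 81 members that could be tested, 65 had a promoter in the RefSeq table. An NRF1 core was found in 20 of the 65 (30.8%), against 13.5% of 10320 tested features with a promoter and 6.54% of all 35116 promoters. The ETS core was found in 17 (26.2%, against 16.2% and 8.52%), and AANATGGCG (the YY1 core) in 2 (3.08%, against 2.34% and 1.38%). The median GC content of these windows was 60.8% in members and 65.2% in all tested features. The median log2 fold change was −0.07 over the 20 members with an NRF1 core and −0.05 over the 45 without, and it was −0.07 over the 17 with an ETS core and −0.05 over the 48 without. A match describes the letters of the window and no more.

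All 5 complexes were well expressed in these fibroblasts. The 81 members that passed the filter included all of complexes I, II, III and V and 13 of complex IV, and they took between 0.633% and 0.668% of all counts. Among genes of complex IV, 4 tissue-restricted isoform genes, COX4I2, COX6A2, COX7B2 and COX8C, had 0 counts in every library. A count of 0 allows up to 3 counts, which is 0.0881 CPM in the shallowest library. COX7A1, the isoform of heart and skeletal muscle, had 38 counts over the 6 libraries and COX6B2, the testis isoform, had 18, and neither was tested. Of the 3 matches outside the complexes, ATP5MGL had 4 counts in all, ATP5MF-PTCD1 had 3 and NDUFC2-KCTD14 had 9.

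The isoform pairs were therefore one-sided in level. COX4I1 had a mean of 264 ± 2.71 FPKM (fragments scaled to transcript length and library size; SD, n = 3) in DOX- libraries, COX6A1 177 ± 6.06, COX8A 231 ± 8.37 and COX6B1 98.0 ± 2.25 FPKM, each beside a partner at or near 0. COX7A2 stood at 110 ± 5.67 FPKM and its relative COX7A2L, which takes part in joining complexes III and IV, at 41.9 ± 1.60 FPKM. NDUFA4 was at 62.4 ± 3.53 FPKM in DOX- libraries and NDUFA4L2, a hypoxia-responsive relative, at 1.34 ± 0.159 FPKM. SHMT2, which overlaps NDUFA4L2 on the opposite strand, had 27323 counts beside the 383 of NDUFA4L2. Without strand, reads of that overlap cannot be told apart, so the level of NDUFA4L2 is uncertain. The genes ATP5MC1, ATP5MC2 and ATP5MC3, which encode the same mature c subunit of the rotor ring, stood at 66.1 ± 1.41, 135 ± 3.95 and 27.4 ± 0.438 FPKM. UQCRHL, an intronless copy of UQCRH, was at 1.22 ± 0.0473 FPKM where UQCRH was at 120 ± 3.24 FPKM, and how reads were split between such near-identical copies is uncertain.

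Per length, ATP5F1B, the catalytic beta subunit of ATP synthase, was the highest member of all, with 326 to 344 FPKM over the 6 libraries. NDUFS5 was the highest gene of complex I at 194 ± 9.24 FPKM in DOX- libraries and NDUFA9 the lowest at 6.03 ± 0.0848 FPKM. In complex II, SDHA, the flavoprotein, was at 47.9 ± 0.896 FPKM and SDHC, a membrane anchor, at 12.5 ± 0.816 FPKM, although SDHC had counts of 91.2 to 98.8 CPM. UQCRH led complex III and COX4I1 led complex IV, with UQCRHL and NDUFA4L2 the lowest genes tested there. In complex V the lowest gene per length was ATP5F1E, the epsilon subunit of the central stalk, at 24.99 ± 1.25 FPKM. On counts it was not the lowest, with a DOX- mean of 100 CPM beside 20.1 CPM of ATP5ME. Likewise NDUFA9 had a DOX- mean of 56.0 CPM beside 11.7 CPM of NDUFB1. FPKM values lean on the length assigned to a gene, and for 3 members (ATP5F1A, NDUFS1 and COX7B) the length implied by dividing counts by FPKM differed by more than 1.5 times between libraries. ATP5F1A, the alpha subunit of the ATP synthase head, was listed at 184, 77.8 and 184 FPKM in DOX- libraries and at 85.8, 193 and 86.3 FPKM in DOX+ libraries. On counts the same gene was steady, at 468, 495 and 474 CPM against 473, 458 and 489 CPM.

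**Figure D1:**
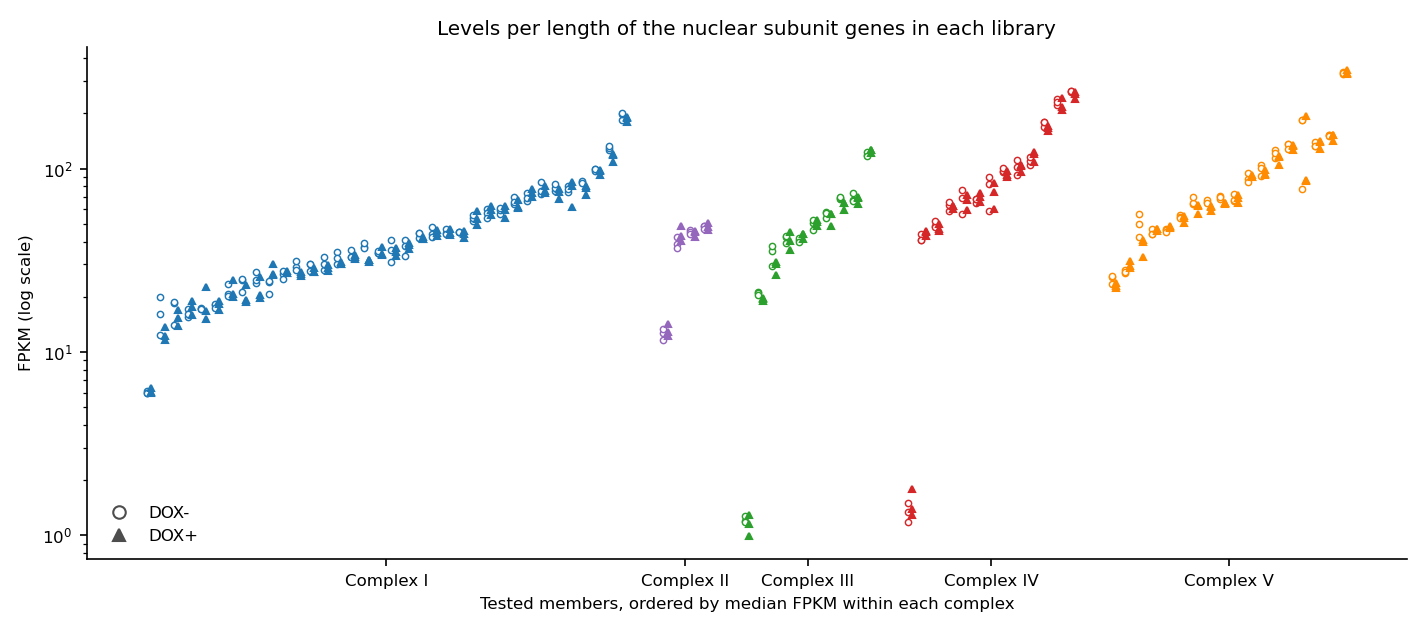
FPKM of the 81 tested members in each library, on a log scale, ordered within each complex by the median over 6 libraries; open circles are DOX- and filled triangles DOX+ libraries. DOX- and DOX+ symbols of a gene lie close together beside the spread between genes, NDUFA4L2 and UQCRHL lie near 1 FPKM, and ATP5F1A shows separate clouds in both groups.

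In DOX+ cells most subunit mRNAs lay within a narrow band around their DOX- level. NDUFS6 fell and was the only member called by edgeR at an adjusted p under 0.05, and 0 members were called higher. In bulk RNA, fewer cells of a type and less RNA per cell cannot be told apart. Over all 13991 features tested, 0.715% were called lower and 0.400% higher. Below 0 on the log2 scale lay 63 of the 81 members, against 7087 of all 13991 features, and the median log2 fold change was −0.06 over members and −0.0019 over all features. That median corresponds to 95.9% of the DOX- level. For 72 of the 81, the 95% interval of the change lay within 20% of the DOX- level on either side, and for 22 it lay within 10%. The plot of single genes by complex shows this shape, many small differences on the lower side of 0 with few intervals that leave it.

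**Figure D2:**
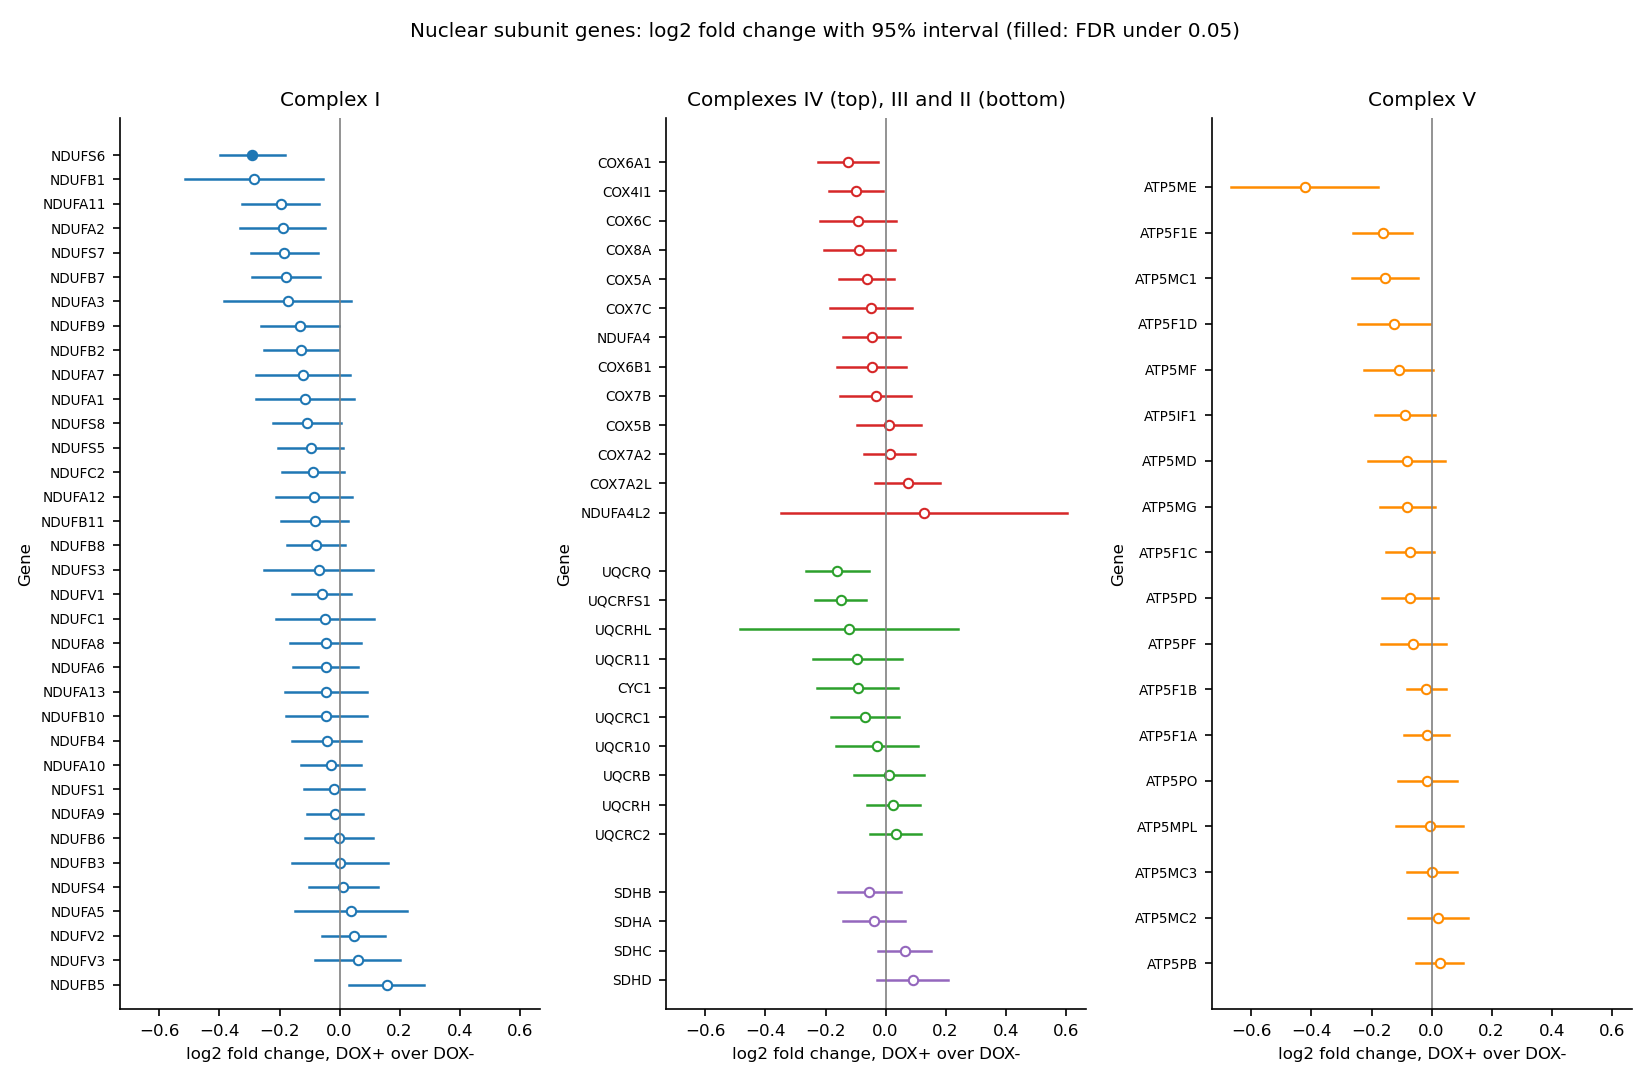
log2 fold change (DOX+ over DOX-) with its 95% interval from edgeR for the tested members named on the axes, coloured by complex, with 3 libraries per group; the filled point is NDUFS6 (log2 fold change −0.29), the single member past an FDR of 0.05. Points of complexes I and V lie mostly left of 0, those of complex II lie on both sides, and the widest intervals belong to NDUFA4L2 and UQCRHL.

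At an unadjusted p under 0.05, 16 members were lower and 1, NDUFB5, was higher, where 7.69% of all features were lower and 7.31% higher. In 19 members every DOX+ library lay below every DOX- library and in 1 every DOX+ library lay above, beside 10.6% and 9.73% of all features. DESeq2 called 5 members lower (NDUFS6, ATP5ME, ATP5F1E, UQCRFS1 and NDUFA11), where it called 1.91% of all features lower. With the GC content trend of each library removed, NDUFS6, UQCRFS1 and ATP5F1E were called lower, beside 1.17% of all features. Without a filter on low counts the calls were NDUFS6 and ATP5ME, beside 0.873% of all features called lower.

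Transcript length moved with these differences. The median canonical transcript was 763 bases in members and 3376 bases over all tested features with a length. Among the 48 members under 1 kb, 40 lay below 0 with a median log2 fold change of −0.08, and among all 717 features under 1 kb 548 did, also with a median of −0.08. Among the 33 members of 1 kb or more, 23 lay below 0 with a median of −0.03 (−0.01 without DOX+ replicate 2), where 5897 of 12054 features of that length did with a median of 0.0031. The correlation of log2 fold change with log2 length was 0.43 (Pearson; Spearman 0.43) across the 81 members and 0.16 (Spearman 0.26) across 12771 features, given as a description of genes that share the same 6 libraries. Fitted per library, the trend of counts on length placed the members at 0.0039, 0.0474 and 0.0444 log2 units in DOX- replicates 1, 2 and 3 and at −0.0169, −0.0542 and −0.0129 in DOX+ replicates. With that trend removed, the median over members was 8.6e-05, 40 members lay below 0 and 41 above, and 0 were called at an FDR of 0.05. At an unadjusted p under 0.05, 7 were then lower and 7 higher, beside 6.78% and 6.86% of all features.

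**Figure D3:**
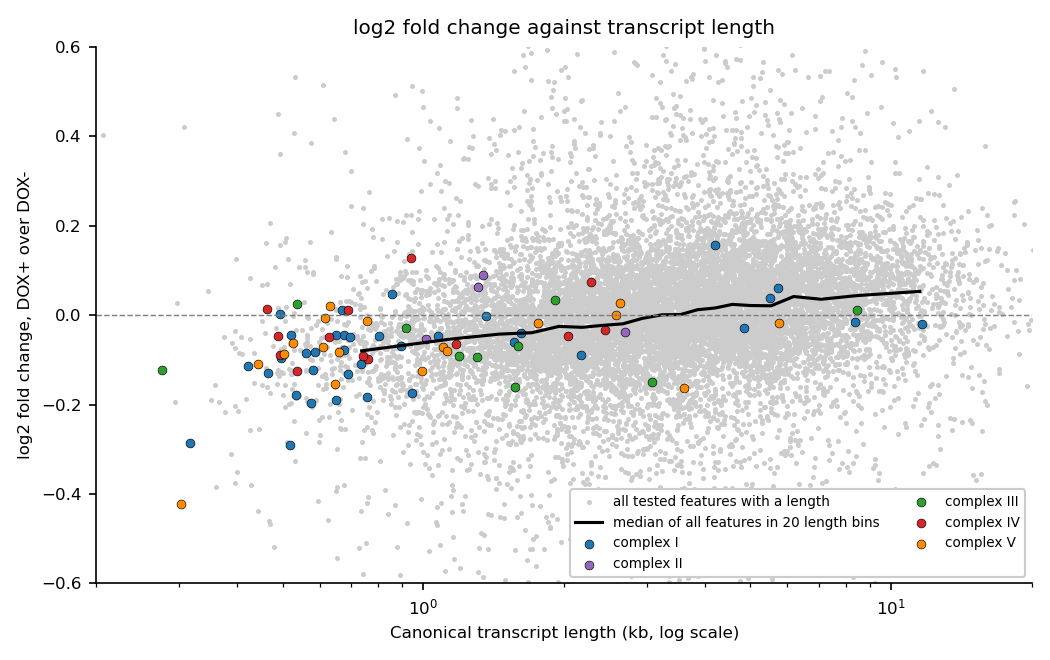
log2 fold change (DOX+ over DOX-) against canonical transcript length in kb on a log axis, for 12771 tested features in grey, with their median in 20 length bins as a line, and for the 81 members coloured by complex; 318 features lie beyond ±0.6 and are not drawn. The line climbs from below 0 at short lengths to above 0 at long ones, and most members sit at the short end.

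Cytosolic ribosomal protein genes, another group of short transcripts (median 827 bases), lay below 0 in 76 of 82 tested, with a median log2 fold change of −0.06 and 1 gene, RPS16, called lower (log2 fold change −0.20, edgeR adjusted p = 0.0202). At an unadjusted p under 0.05 in edgeR, 28 of these 82 were lower and 0 higher, beside 7.69% and 7.31% of all features. Of mitochondrial ribosomal protein genes, 60 of 78 lay below 0, with a median of −0.04 and 0 called in either direction, 10 being lower and 2 higher at an unadjusted p under 0.05. With the length trend removed these medians were −0.0083 and 0.012.

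Complex I is the largest of the complexes and held NDUFS6, the member called by edgeR. Of 36 genes, 30 lay below 0, with a median log2 fold change of −0.06. The mean log2 CPM over its members, set relative to the DOX- mean, was −0.0364, 0.0244 and 0.0121 in DOX- and −0.0508, −0.112 and −0.0639 in DOX+ replicates 1, 2 and 3. All 3 DOX+ libraries lay below all 3 DOX- libraries, with the DOX+ replicate 2 lowest. The difference was −0.0755 (SD within groups 0.0321) and −0.0147 with the length trend removed. In the matrix arm, which oxidizes NADH and passes electrons to ubiquinone, 12 of 16 genes lay below 0 (median −0.05), and in the proton-pumping membrane arm 18 of 20 did (median −0.08). With the length trend removed, 10 of 16 (median −0.01) and 9 of 20 (median 0.0020) lay below 0. Without DOX+ replicate 2, 14 of 16 and 15 of 20 did, with medians of −0.056 and −0.062.

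NDUFS6 (ENSG00000145494, chr5:1801407-1816048, plus strand) encodes a zinc-binding accessory subunit of the NADH-oxidizing module, whose promoter was shown above. It was counted at 44.3, 43.6 and 47.0 CPM in DOX- libraries and at 36.6, 36.4 and 37.3 CPM in DOX+ libraries. The groups did not overlap, and the DOX+ values were close to each other. The log2 fold change was −0.29 (SE 0.0499, edgeR adjusted p = 0.0113), or 81.8% of the DOX- level. The call was lost without DOX- replicate 1 (adjusted p = 0.0553, edgeR), DOX- replicate 3 (0.0671) or DOX+ replicate 1 (0.0774), on log2(FPKM + 1) with limma (0.0585), and with the length trend removed (log2 fold change −0.19, adjusted p = 0.0976). The call remained without DOX+ replicate 2 (adjusted p = 0.0337, edgeR) and with the GC content trend removed (log2 fold change −0.24, edgeR adjusted p = 0.00999). Its canonical transcript has 518 bases, whereas its counts and FPKM imply a length of 1177 bases. With a trend on such implied lengths removed the call also remained (log2 fold change −0.23, edgeR adjusted p = 0.0431). Over all settings that refitted the data the log2 fold change was between −0.31 and −0.19.

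Other complex I genes followed with smaller evidence. NDUFS7, a core subunit with the iron-sulfur cluster nearest to ubiquinone, was at 40.8, 41.2 and 41.0 CPM in DOX- and at 37.4, 34.4 and 36.5 CPM in DOX+ libraries (log2 fold change −0.18, SE 0.0511, edgeR adjusted p = 0.116). NDUFB7, an accessory subunit of the membrane arm, was at 49.7, 50.4 and 50.1 CPM against 46.5, 41.1 and 45.1 CPM (log2 fold change −0.18, SE 0.0528, edgeR adjusted p = 0.136). In both genes all DOX+ values lay under all DOX- values, without passing the test, and with the length trend removed the log2 fold changes were −0.11 and −0.09. NDUFA11, an accessory subunit of the membrane arm, was at 85.9, 91.3 and 95.9 CPM against 82.2, 72.0 and 84.1 CPM (log2 fold change −0.20, SE 0.060, edgeR adjusted p = 0.148; DESeq2 adjusted p = 0.0312), and −0.11 with the length trend removed. NDUFB5, also of the membrane arm and with a transcript of 4199 bases, differed the other way, at 33.4, 33.3 and 32.6 CPM against 35.35, 39.6 and 35.7 CPM (log2 fold change 0.16, SE 0.0575, edgeR adjusted p = 0.221). Without DOX+ replicate 2 the log2 fold change of NDUFA11 was −0.13 and that of NDUFB5 0.10. With the length trend removed NDUFB5 was at 0.14. Its counts and FPKM imply a length of 1358 bases, and with a trend on such implied lengths removed it was at 0.21. The core subunits NDUFV1, which binds NADH, and NDUFS1 overlapped between groups, NDUFV1 with 75.9, 76.0 and 78.0 CPM against 77.0, 73.1 and 70.4 CPM. NDUFV2, NDUFS3 and NDUFS8, also core subunits, overlapped too. Their log2 fold changes were 0.05 (0.02 without DOX+ replicate 2), −0.07 and −0.11. With the length trend removed they were 0.12, −0.0015 and −0.03.

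Complex II, which belongs to both the respiratory chain and the tricarboxylic acid cycle, had 2 genes on each side of 0 and a median log2 fold change of 0.01 (0.03 without DOX+ replicate 2). Its mean log2 CPM relative to DOX- was −0.0115, 0.0260 and −0.0145 in DOX- and −0.0011, −0.0103 and 0.0573 in DOX+ replicates, and the groups overlapped. The difference was 0.0153 (SD within groups 0.0304), and 0.0577 with the length trend removed, where the DOX+ libraries (0.0355, 0.0529 and 0.0846) all lay above the highest DOX- library (0.0181). Without DOX+ replicate 3 the difference turned to −0.0051, and over the other 5 libraries left out in turn it ran from 0.0082 to 0.0292. SDHD, a membrane anchor that helps bind ubiquinone, was at 59.7, 66.3 and 59.5 CPM in DOX- and at 62.6, 69.0 and 65.8 CPM in DOX+ libraries (log2 fold change 0.09, or 0.06 without DOX+ replicate 2, SE 0.0543, edgeR adjusted p = 0.468). SDHC, the other anchor, was at 91.2, 96.1 and 91.6 CPM against 97.0, 95.5 and 98.8 CPM (log2 fold change 0.06, SE 0.0412, edgeR adjusted p = 0.502). SDHA, the flavoprotein that oxidizes succinate, was at 121, 119 and 125 CPM against 116, 113 and 127 CPM, and SDHB, with the iron-sulfur clusters, at 59.1, 57.2 and 56.8 CPM against 57.1, 52.4 and 57.2 CPM. All 4 intervals lay within 20% of the DOX- level. With a trend on the length implied by counts and FPKM removed, the difference of the complex was 0.0362. SDHC was at 0.11 with the trend on canonical length removed (1308 bases) and at 0.02 with that on implied length (7469 bases).

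In complex III, 7 of 10 genes lay below 0, with a median log2 fold change of −0.08 (−0.02 without DOX+ replicate 2) and 0 calls by edgeR, while DESeq2 called UQCRFS1. The mean log2 CPM relative to DOX- was −0.0409, 0.0202 and 0.0207 in DOX- and −0.0409, −0.0990 and −0.0549 in DOX+ replicates. The highest DOX+ library met the lowest DOX- library, and the difference of −0.0649 (SD within groups 0.0330) was −0.0181 with the length trend removed. UQCRFS1, the Rieske iron-sulfur protein, was at 81.1, 80.9 and 80.3 CPM in DOX- and at 71.6, 73.7 and 73.1 CPM in DOX+ libraries. The groups were apart with little spread (log2 fold change −0.15, SE 0.0395, edgeR adjusted p = 0.0949; DESeq2 adjusted p = 0.0363). Its transcript has 3086 bases, and with the length trend removed the log2 fold change was −0.14 (edgeR adjusted p = 0.110). UQCRQ, a small accessory subunit, was at 58.3, 58.5 and 58.8 CPM against 53.9, 49.2 and 54.0 CPM (log2 fold change −0.16, SE 0.0483, edgeR adjusted p = 0.144), and −0.12 with the length trend removed. CYC1, the heme protein that hands electrons to cytochrome c, was at 79.6, 73.4 and 79.8 CPM against 76.8, 65.0 and 76.6 CPM (log2 fold change −0.09, SE 0.0624, edgeR adjusted p = 0.520), and the low value was that of DOX+ replicate 2, without which the log2 fold change was −0.02. UQCRC1, a core protein, overlapped as well, at 148, 146 and 163 CPM against 150, 136 and 149 CPM (log2 fold change −0.07, or −0.02 without DOX+ replicate 2). UQCRC2, the other core protein (log2 fold change 0.03, or 0.07 with the length trend removed), and UQCRH (0.03, or 0.12) overlapped too. With the length trend removed, CYC1 was at −0.04 and UQCRC1 at −0.03 on the log2 scale.

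Complex IV had 9 of 13 tested genes below 0, a median log2 fold change of −0.05 and 0 calls by edgeR or DESeq2. Its mean log2 CPM relative to DOX- was −0.0525, 0.0528 and −0.0003 in DOX- and −0.0084, −0.0515 and −0.0373 in DOX+ replicates, so that the DOX+ libraries lay inside the DOX- range. The difference was −0.0324 (SD within groups 0.0403), and 0.0368 with the length trend removed. It was −0.0582 without DOX- replicate 1 and −0.0052 without DOX- replicate 2. NDUFA4L2 (log2 fold change 0.13, SE 0.22), whose level is uncertain, weighed as much in this mean as each other gene. COX6A1, an accessory subunit thought to regulate the enzyme, was at 107, 114 and 116 CPM in DOX- and at 107, 98.8 and 104 CPM in DOX+ libraries (log2 fold change −0.13, SE 0.0459, edgeR adjusted p = 0.221). COX4I1, the isoform used in most tissues, was at 206, 211 and 213 CPM against 200.1, 185 and 204 CPM (log2 fold change −0.10, SE 0.0422, edgeR adjusted p = 0.294). For COX8A, one of the smallest subunits, the groups overlapped, with 124, 134 and 132 CPM against 120, 114 and 133 CPM (log2 fold change −0.09, SE 0.0547, edgeR adjusted p = 0.482). COX5A was at 65.5, 63.8 and 66.5 CPM against 64.2, 61.1 and 62.1 CPM (log2 fold change −0.06), and COX5B at 51.3, 54.1 and 55.0 CPM against 51.4, 56.0 and 54.5 CPM. With the length trend removed the log2 fold changes were −0.03 for COX6A1, −0.02 for COX4I1, 0.0096 for COX8A and −0.01 for COX5A. Without DOX+ replicate 2 they were −0.06 for COX4I1 and −0.04 for COX8A.

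In complex V, 15 of 18 genes lay below 0, with a median log2 fold change of −0.07 and 0 calls by edgeR. The mean log2 CPM relative to DOX- was −0.0363, 0.0229 and 0.0134 in DOX- and −0.0744, −0.104 and −0.0607 in DOX+ replicates, without overlap. The difference was −0.0796 (SD within groups 0.0273), and −0.0170 with the length trend removed, where all 3 DOX+ libraries (−0.0236, −0.0135 and −0.0138) still lay below the lowest DOX- library (−0.0072). All 5 genes of the F1 head and central stalk lay below 0 (4 with the length trend removed, and 4 without DOX+ replicate 2). ATP5F1A and ATP5F1B, which form its catalytic ring, were the most heavily counted members and overlapped between groups, ATP5F1B with 660, 683 and 682 CPM against 660, 657 and 684 CPM. ATP5F1E, the epsilon subunit, was at 94.6, 103 and 103 CPM in DOX- and at 89.3, 87.6 and 91.8 CPM in DOX+ libraries (log2 fold change −0.16, SE 0.0459, edgeR adjusted p = 0.119; DESeq2 adjusted p = 0.0253), and at −0.17 it was as far from 0 with the length trend removed. ATP5F1D, the delta subunit, was at 64.4, 65.2 and 68.2 CPM against 61.8, 55.3 and 64.2 CPM (log2 fold change −0.13), and ATP5F1C, the gamma subunit of the rotor, was at 167, 168 and 163 CPM against 160, 159 and 155 CPM (log2 fold change −0.07). With the length trend removed ATP5F1D was at −0.06 and ATP5F1C at −0.02 on the log2 scale, and without DOX+ replicate 2 ATP5F1D was at −0.06.

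In the membrane part, ATP5ME, the e subunit that helps join ATP synthase dimers, had the lowest log2 fold change of all tested members. It was counted at 17.1, 20.01 and 23.2 CPM in DOX- and at 16.3, 13.0 and 15.8 CPM in DOX+ libraries, apart but with a wide spread within each group. The log2 fold change was −0.42 (SE 0.113, edgeR adjusted p = 0.102; DESeq2 adjusted p = 0.0118). Its transcript has 303 bases, and MYL5, which overlaps it on the opposite strand, had 975 counts beside its own 3705, so that without strand reads of the overlap cannot be told apart. ATP5MC1 of the c ring was at 43.3, 44.3 and 43.4 CPM against 40.8, 37.3 and 39.6 CPM (log2 fold change −0.15, SE 0.0506, edgeR adjusted p = 0.175). ATP5MC2 and ATP5MC3, which encode the same mature subunit, were counted more heavily and overlapped between groups. ATP5MC2 had DOX- and DOX+ means of 106 and 107 CPM (log2 fold change 0.02, or 0.06 without DOX+ replicate 2). ATP5MC3 had means of 141 and 141 CPM (log2 fold change 0.0011, or −0.0061 without DOX+ replicate 2). ATP5IF1, the inhibitor that blocks ATP synthase from running backwards, was at 52.5, 49.5 and 50.5 CPM against 46.6, 48.9 and 48.1 CPM (log2 fold change −0.09, SE 0.0463, edgeR adjusted p = 0.404). With the length trend removed the log2 fold changes were −0.30 for ATP5ME, −0.07 for ATP5MC1, 0.11 for ATP5MC2, 0.02 for ATP5MC3 and 0.0096 for ATP5IF1.

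**Figure D4:**
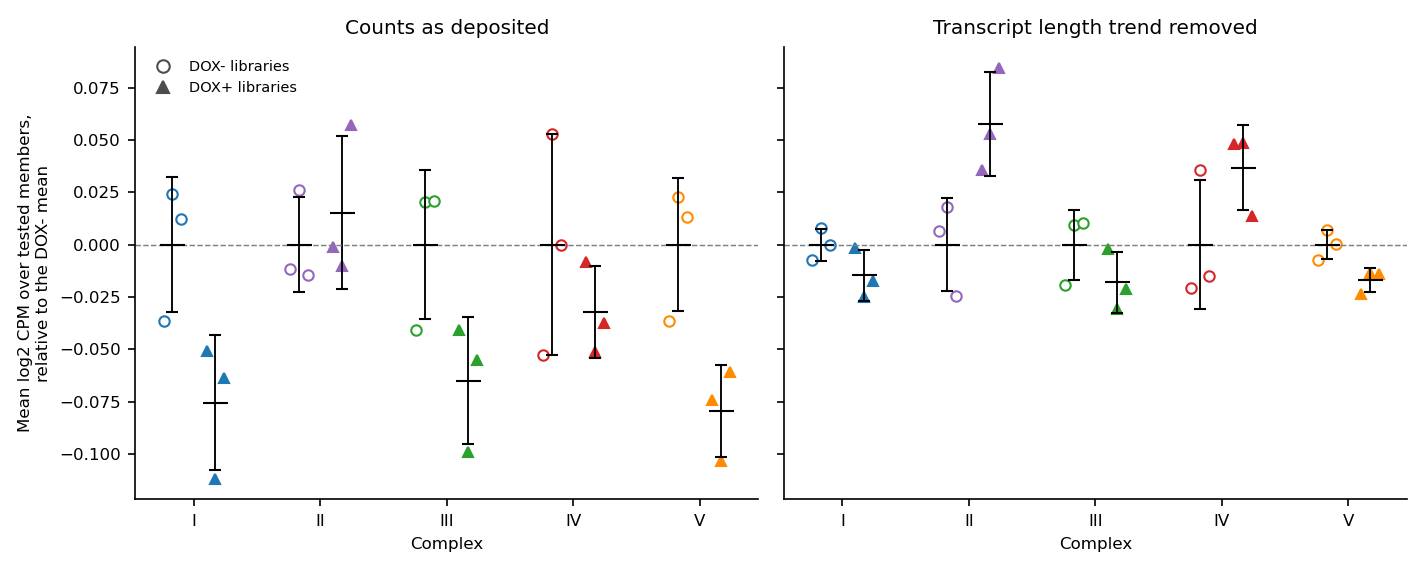
Mean log2 CPM over the tested members of each complex in each library, relative to the DOX- mean, from the counts as deposited (left) and with the transcript length trend of each library removed (right); circles are DOX- and triangles DOX+ libraries, and bars are the mean ± SD of 3 libraries. On the left complexes I and V lie lower in DOX+ libraries without overlap; on the right the difference is 0.0577 in complex II, 0.0368 in complex IV and slightly below 0 in the others.

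Summed over members of a complex, DOX+ libraries held 95.4% of the DOX- CPM for complex I, 101% for complex II, 96.7% for complex III, 96.1% for complex IV and 97.3% for complex V. Over all 81 members the sum was 6604 ± 132 CPM in DOX- and 6385 ± 123 CPM in DOX+ libraries (SD, n = 3). Without DOX+ replicate 2, the median log2 fold change over members was −0.04, and 63 of 81 again lay below 0.

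The other nuclear genes of the pathway had 0 calls in either direction. Of 52 assembly factors, which build the complexes without staying in them, 31 lay below 0 (median log2 fold change −0.03) and 0 were called, with 2 lower (NDUFAF3 and COX17) and 1 higher (HIGD1A) at an unadjusted p under 0.05. Electron carriers and shuttles were below 0 in 8 of 19 (median 0.02, 0 called), among them GPD2, the mitochondrial glycerol phosphate dehydrogenase, at 37.6, 37.8 and 36.8 CPM against 43.1, 45.9 and 41.4 CPM (log2 fold change 0.22, SE 0.0527, edgeR adjusted p = 0.0737), and CYCS, cytochrome c itself (log2 fold change 0.14, edgeR adjusted p = 0.171). Tricarboxylic acid cycle enzymes were below 0 in 8 of 17 (median 0.0030, 0 called). Regulators of mitochondrial genes were evenly split, 6 below and 6 above 0 of 12 tested, and TFAM, which packages and transcribes mitochondrial DNA (log2 fold change 0.24, edgeR adjusted p = 0.130), GABPA (0.16) and YY1 (−0.12) had unadjusted p-values under 0.05 without passing the adjusted test. These groups have longer transcripts, with medians of 1669, 2109, 2658 and 4817 bases in the order given. GPD2, CYCS, TFAM, GABPA and YY1, with the assembly factors named here, were picked after their values were seen.

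Subunits encoded by mitochondrial DNA, which share the complexes with the nuclear ones, had a median log2 fold change of 0.02 over 13 genes, with MT-ATP6 (0.36), MT-ATP8 (0.40) and MT-ND2 (0.14) called higher and MT-CO1 (−0.10) called lower. Their annotated transcripts have a median of 784 bases. Of the 13 genes, 8 lay above 0, and with the length trend removed their median was 0.10. How length bears on these genes was not tested. Summed over the mitochondrial genes of a complex, levels in DOX- and DOX+ libraries were 5944 ± 281 and 5841 ± 99.8 CPM in complex I, 482 ± 37.3 and 489 ± 21.7 CPM in complex III, 9102 ± 362 and 8869 ± 218 CPM in complex IV, and 1442 ± 24.8 and 1870 ± 46.7 CPM in complex V (SD, n = 3).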

How the data were processed

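Poly(A)-selected RNA of 3 DOX- and 3 DOX+ libraries was sequenced, and the authors aligned filtered reads (HISAT2, GRCh38) and assembled transcripts with StringTie. Tool versions, annotation release and the strand setting of the counting are not given in the sources used here. The authors deposited whole, unnormalized counts per gene and an FPKM value per gene and library. Fold changes and tests used the counts, and FPKM values were used for levels and for 1 alternative fit. After 17 stray lines without a gene were dropped, 23754 features remained, 3780 of them unannotated loci.

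DOX+ was compared with DOX- in edgeR 4.0.16 (R 4.3.3) with filterByExpr (minimum count 10), TMM scaling and the quasi-likelihood test, adjusted by Benjamini-Hochberg over 13991 features, at an FDR of 0.05. CPM values are TMM-scaled. Standard errors came from the fold change and its F statistic. Alternatives were DESeq2 1.42.0, limma 3.58.1 (voom and log2(FPKM + 1)), other filters and scalings, each library left out, the replicate block and removal of a lowess trend fitted in each library (span 0.3) against length or GC content of GENCODE 44 canonical transcripts. A trend on the length implied by counts and FPKM was added after seeing the data. Scripts were tested on simulated data. Named genes were members past the FDR, the 3 smallest p-values per complex (2 in complex II), the highest and lowest FPKM per complex, isoform pairs, core subunits and ATP5IF1. NDUFA11 and NDUFB5 fall outside this rule and were chosen after their values were seen. Members and lists were chosen with earlier results of these data known. Promoters came from RefSeq on GRCh38.p14, and 16 tested members without one were not searched, among them ATP5F1B, ATP5F1D, ATP5MC3, ATP5MF, COX6C, CYC1, NDUFA4, NDUFA4L2, NDUFB5, NDUFB9, NDUFC2, NDUFS5, SDHC, UQCRB and UQCRHL. The values of 1 member, which is counted in all totals, are not reported here. The 95% intervals come from the edgeR fit and hold the spread between libraries, whereas the floor of a count of 0 covers counting error only.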

Additional observations from a re-analysis of the deposited data

How the results depend on the processing

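The count of members called lower was 1, and it was 2 without a filter on low counts, 5 with DESeq2, 3 with the GC content trend removed, 0 on log2(FPKM + 1) with limma, 0 with the length trend removed, 0 at an FDR under 0.01, 0 where an absolute log2 fold change over 1 was also asked, and 16 at an unadjusted p under 0.05, where 1 was higher. With the implied length trend removed the count stayed at 1. Leaving out 1 library gave 0 to 1 calls, 0 in the fits lacking DOX- replicate 1, DOX- replicate 3 and DOX+ replicate 1, each in turn. In these fits 10 (without DOX- replicate 2 or 3) to 24 (without DOX- replicate 1) members were lower at an unadjusted p under 0.05. The share of all features lower in the same fits was not taken, so these last counts say nothing particular to the members. The median log2 fold change, −0.06, was 8.6e-05 with the length trend and −0.0045 with the implied length trend removed. Without DOX+ replicate 2 it was −0.040. The mean differences of complexes I, II, III, IV and V were −0.0147, 0.0577, −0.0181, 0.0368 and −0.0170 with the length trend removed. In the same order they were −0.0167, 0.0362, −0.0246, 0.0412 and −0.0216 with the implied length trend removed. Complex II was at 0.0492 on FPKM. ATP5IF1 and COX8A turned to 0.0096 each with the length trend removed, and COX8A to 0.0090 with the implied length. With library size scaling alone the median over all features was 0.0188 and over members −0.0395. With the replicate block 1 member was called and the median was −0.061. Same-numbered libraries correlated at −0.0241, −0.0352 and 0.0363 in their deviations from the group means, so no shared deviation was seen. Each group was centred on its own mean, and these values cannot settle whether the numbers pair the samples. The intervals of NDUFA4L2, UQCRHL, NDUFB1 and ATP5ME passed 25% of the DOX- level, and the cause was not tested. Over libraries left out in turn the difference of complex II ran from −0.0051 to 0.0292 and that of complex IV from −0.0582 to −0.0052.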
